A study of Caenorhabditis elegans with 33 samples.

Results

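The 6 hsp-16 genes and hsp-70 of Caenorhabditis elegans, 7 of the 46778 gene identifiers counted, were followed through 11 groups of whole animals that were, or were not, kept under chronic gamma radiation for up to 4 generations. The 7 genes were taken by their WormBase identifiers: hsp-16.1 (WBGene00002015), hsp-16.2 (WBGene00002016), hsp-16.11 (WBGene00002017), hsp-16.41 (WBGene00002018), hsp-16.48 (WBGene00002019), hsp-16.49 (WBGene00002020) and hsp-70 (WBGene00002026). They were chosen by their higher levels in exposed than in control animals of these same libraries, so those differences are given as a description with no test. All 7 passed the filter on low counts, which kept 17627 genes.

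All animals were of the wild-type N2 strain, grown at 19 °C on bacterial plates and bleached to obtain synchronised embryos, and the labels name no transgene or mutation. Exposed animals received 50 mGy per h for 65 h in each generation, starting as embryos and ending at the L4 larva or young adult, and were sampled in F0, F1, F2 and F3. Recovery animals had an F0 irradiated in the same way, were then raised without radiation, and were sampled in F1, F2 and F3. Control animals were never irradiated and were sampled in F0 to F3. Each of the 11 groups had 3 libraries, 33 in all, made from total RNA of entire animals, so RNA of all tissues was pooled.

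Libraries held 27.7 M to 60.8 M counts, with a median of 37.3 M. Between 3.19% and 24.3% of a library fell on ribosomal RNA genes. The fewest genes were detected in replicate 3 of F3 recovery (18240) and replicate 3 of F3 control (19610), while every other library had 20503 or more, and results that rest on these 2 libraries are also given without them. Markers of sperm (29 of 29 listed genes), adult intestine (6 of 6) and moulting hypodermis (12 of 12) were detected in each group. Levels are given as CPM, a gene's counts for each M counts of the library, with library sizes scaled by TMM factors.

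The heat shock response is driven by the transcription factor HSF-1, which is held inactive by chaperones and released when proteins unfold. Its targets include the small HSP-16 proteins, which bind unfolding proteins without using ATP and keep them from clumping, and the inducible HSP-70, which uses ATP to refold its clients. The hsp-16 genes are widely used as reporters of heat and other stress in the worm, where they are low in unstressed animals and strongly induced by heat.

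The 6 hsp-16 genes lay in head-to-head pairs on chromosome V (WBcel235). hsp-16.2 (Y46H3A.3, positions 1804334 to 1804957, minus strand) and hsp-16.41 (Y46H3A.2, positions 1805178 to 1805875, plus strand) had 220 bases between their start sites. The other 4 formed the T27E4 cluster. In its left pair, hsp-16.1 (T27E4.8, positions 9087293 to 9087782, minus strand) and hsp-16.48 (T27E4.3, positions 9088131 to 9088617, plus strand) were 348 bases apart at their starts. In its right pair, hsp-16.49 (T27E4.9, positions 9089280 to 9089766, minus strand) and hsp-16.11 (T27E4.2, positions 9090077 to 9090604, plus strand) were 310 bases apart. The WormBase annotation gives hsp-16.11 the symbol hsp-16.1 and hsp-16.49 the symbol hsp-16.48, because the right pair is a near-identical, inverted copy of the left one. The names used here are those of RefSeq. hsp-70 (C12C8.1) lay on chromosome I at positions 9320325 to 9322519 on the minus strand, inside the gene uggt-2 on the other strand, and shared no exon base with it.

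**Figure D1:**
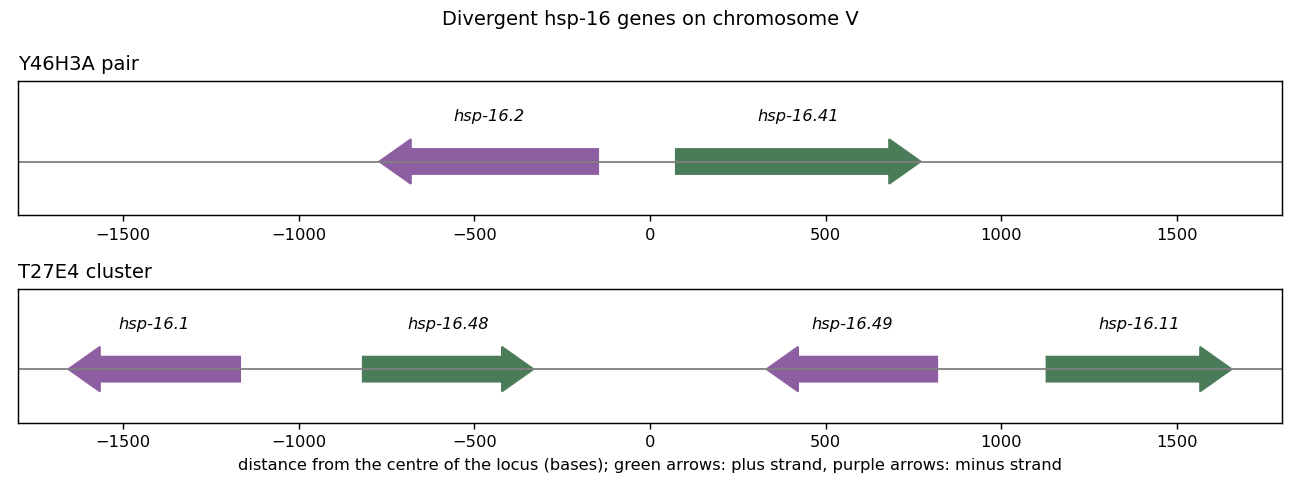
Gene models of the 6 hsp-16 members on chromosome V, drawn to scale; the horizontal axis is the distance in bases from the centre of each locus, and arrows point in the direction of transcription. The upper panel shows the Y46H3A pair with 220 bases between start sites, and the lower panel the T27E4 cluster with 348 and 310 bases between the starts of its left and right pairs.

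The members fell into 2 classes by abundance. hsp-16.2, hsp-16.41 and hsp-70 were abundant transcripts even in unirradiated animals, whereas the 4 T27E4 genes lay near 1 CPM or below in most groups. Per kb of exon, hsp-16.41 averaged 1106 ± 94.1 CPM, hsp-16.2 1084 ± 134 CPM, hsp-70 251 ± 24.1 CPM and hsp-16.1 9.26 ± 4.88 CPM in F0 exposed animals (SD, n = 3 each). The counts of the 4 T27E4 genes together came to 0.258% to 1.54% of the counts of hsp-16.2 and hsp-16.41 in the same library. The treatment of reads that match several copies is not given in the sources used here, so the absolute levels of the T27E4 genes and the division of reads between copies are uncertain.

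Levels of the abundant small heat shock gene hsp-16.2 followed both generation and treatment. In F0 it was at 711, 609 and 560 CPM in the exposed libraries, against 415, 309 and 420 CPM in the control libraries. In F1 it was at 463, 542 and 526 CPM in exposed, 334, 343 and 369 CPM in recovery, and 228, 284 and 366 CPM in control libraries. In both generations the exposed libraries lay above all controls, while in F1 the recovery libraries overlapped the controls. In F2 the libraries had 125, 121 and 128 CPM in exposed, 105, 84.5 and 93.4 CPM in recovery, and 33.3, 48.1 and 52.7 CPM in control animals. In F3 they had 296, 139 and 180 CPM in exposed, 132, 187 and 161 CPM in recovery, and 66.7, 44.98 and 126 CPM in control animals. The 3 groups of F2 did not overlap one another, and in F3 both the exposed and the recovery libraries lay above the controls but overlapped each other. F3 exposed replicate 1 and F3 control replicate 3 stood highest in their groups. Ribosomal RNA genes held 20.8% of the counts in F3 exposed replicate 1, against 6.80% and 6.03% in replicates 2 and 3. In bulk samples such as these, fewer cells of a type and less RNA per cell cannot be told apart.

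Its divergent partner hsp-16.41, another small heat shock gene, had the same course. In F0 it stood at 776, 685 and 662 CPM in exposed against 413, 367 and 446 CPM in control libraries. In F1 the values were 524, 541 and 562 CPM in exposed, 336, 367 and 349 CPM in recovery, and 233, 293 and 356 CPM in control libraries. As for hsp-16.2, exposed animals lay above controls in both generations, and F1 recovery overlapped F1 control. The F2 values were 124, 132 and 125 CPM in exposed, 112, 86.2 and 83.0 CPM in recovery, and 36.2, 56.4 and 56.8 CPM in control libraries. The F3 values were 358, 201 and 261 CPM in exposed, 176, 221 and 191 CPM in recovery, and 67.5, 49.9 and 132 CPM in control libraries. Recovery lay above control in F2 and in F3 with no overlap.

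The ATP-driven chaperone gene hsp-70, on another chromosome, again ranked exposed above recovery above control by its means. In F0 its libraries had 570, 510 and 471 CPM in exposed and 325, 224 and 302 CPM in control animals. In F1 they had 364, 417 and 397 CPM in exposed, 252, 288 and 308 CPM in recovery, and 132, 180 and 238 CPM in control animals. Here, unlike for hsp-16.2 and hsp-16.41, the F1 recovery libraries lay above the F1 controls with no overlap. In F2 hsp-70 was at 134, 130 and 127 CPM in exposed, 96.2, 84.0 and 84.3 CPM in recovery, and 38.6, 42.6 and 54.8 CPM in control libraries. In F3 it was at 329, 147 and 169 CPM in exposed, 129, 187 and 138 CPM in recovery, and 52.5, 48.6 and 106 CPM in control libraries. The 3 groups were separate in F2, and in F3 exposed and recovery overlapped each other above the controls.

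**Figure D2:**
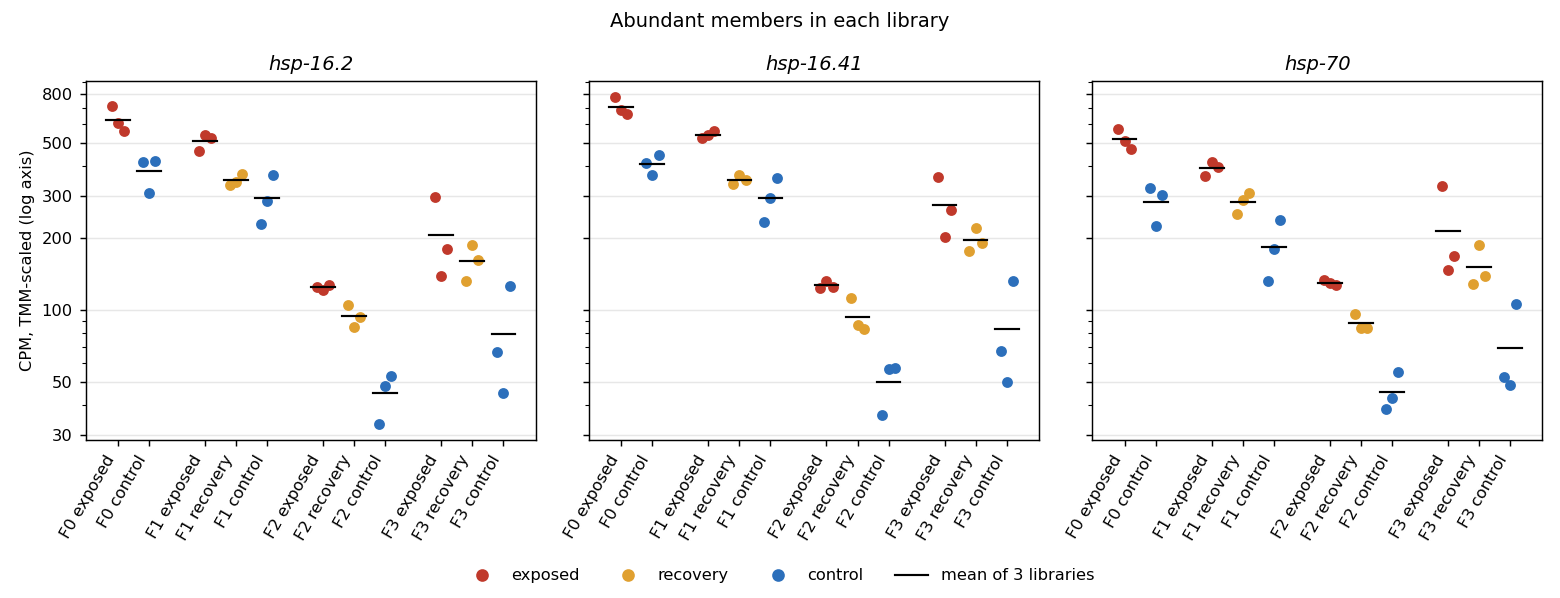
CPM (log axis, scaled with TMM factors) of hsp-16.2, hsp-16.41 and hsp-70 in each of the 33 libraries; within each generation exposed, recovery and control stand left to right, points are libraries and bars are means of 3. All 3 genes step down between F1 and F2 in every treatment, and within F1, F2 and F3 their means run exposed, recovery, control.

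By group mean, the order of the 11 groups was the same for hsp-16.2 and hsp-16.41. It ran F0 exposed, F1 exposed, F0 control, F1 recovery, F1 control, F3 exposed, F3 recovery, F2 exposed, F2 recovery, F3 control and F2 control. For hsp-70 the only change was that F3 exposed stood above F1 control. In this order F0 exposed, F1 exposed and F0 control did not overlap one another for any of the 3 genes, nor did F2 exposed and F2 recovery. F0 control, F1 recovery and F1 control each overlapped its next neighbour, as did F3 control and F2 control. Irradiated animals of F2, with 124 ± 3.19 CPM of hsp-16.2, thus lay below never-irradiated animals of F0, with 381 ± 62.8 CPM (mean ± SD, n = 3 each). Over the generations the highest group mean of hsp-16.2 was 5.03 times the lowest in exposed, 3.70 times in recovery and 8.53 times in control animals. For hsp-70 these ratios were 3.97 in exposed, 3.2 in recovery and 6.26 in control animals.

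Set against the controls of the same generation, the exposed means of hsp-16.2 were 1.64, 1.74, 2.79 and 2.59 times as high in F0, F1, F2 and F3. For hsp-16.41 the ratios of means were 1.73, 1.84, 2.54 and 3.29, and for hsp-70 1.82, 2.14, 2.87 and 3.12. Exposed libraries lay above all controls for 6, 6, 5 and 3 of the 7 members in F0, F1, F2 and F3. Over all genes tested such separation upward held for 14.1%, 10.7%, 12.9% and 9.3%. The members were chosen on this contrast, so these counts only describe them. Without F3 control replicate 3 the ratio was 3.68 for hsp-16.2, 4.66 for hsp-16.41 and 4.25 for hsp-70, and without F3 exposed replicate 1 it was 2.02, 2.78 and 2.29 in the same order.

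The baseline of the abundant members in never-irradiated animals was lower in F2 and F3 than in F0 and F1. The members were chosen on these control libraries, set against exposed ones, so the p-values between controls are not independent of that choice. F2 controls had less transcript than F0 controls for 6 of 7 members by edgeR's quasi-likelihood test with Benjamini-Hochberg adjustment, where 13.9% of all genes were called lower. For hsp-16.2 the fall was 8.50-fold, a log2 fold change of -3.09 (SE 0.30, edgeR adjusted p = 4.74e-08). hsp-16.41 fell 8.18-fold (log2 -3.03, SE 0.26, edgeR adjusted p = 1.52e-08), and hsp-70 fell 6.25-fold (log2 -2.64, SE 0.29, edgeR adjusted p = 2.74e-07). For all 7 members the F2 libraries lay below the F0 libraries, against 20.6% of all genes. hsp-16.1, hsp-16.11 and hsp-16.49 were 5.26-fold, 4.33-fold and 3.85-fold lower in F2 controls (edgeR adjusted p = 0.0161, 0.00732 and 0.0362), while hsp-16.48 missed the threshold (edgeR adjusted p = 0.0606). The DESeq2 Wald test did call hsp-16.48. The call of hsp-16.49 was lost with any single F0 or F2 control library left out and that of hsp-16.1 without replicate 1 of either group, with adjusted p up to 0.0954 and 0.0568. The median log2 fold change over the 7 members was -2.40, against 0.02 over all genes.

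Between neighbouring generations the falls were called in F2 against F1 controls, with the same limit on the p-values. F1 and F0 controls differed for 0 of 7 members by edgeR at adjusted p, for 1 at an unadjusted p under 0.05 (hsp-70, log2 -0.63, SE 0.27, edgeR adjusted p = 0.10) and for 0 by DESeq2, where edgeR called 10.6% of all genes higher and 9.21% lower. F2 controls were below F1 controls for 6 of 7 members (10.6% of all genes lower), all 7 without overlap (16.9% of all genes), with falls of 6.53-fold for hsp-16.2, 5.88-fold for hsp-16.41 and 4.03-fold for hsp-70 (edgeR adjusted p = 4.61e-07, 1.89e-07 and 1.33e-05). Without F1 control replicate 3 or F2 control replicate 1 these 3 were the only members called. F3 controls remained below F0 controls for these 3 genes, by 4.81-fold, 4.92-fold and 4.11-fold (edgeR adjusted p = 7.61e-06, 1.53e-06 and 2.03e-05; 7.02% of all genes lower). They were also below F1 controls, by 3.70-fold, 3.54-fold and 2.65-fold (edgeR adjusted p = 2.76e-05, 1.01e-05 and 0.000492; 17.9% of all genes lower). The T27E4 genes were not called in F3 against F0 or F1 controls, and their libraries overlapped in both comparisons. Without F3 control replicate 3 the members called lower in F3 controls numbered 5 against F0 and 7 against F1. The calls of the 3 abundant genes in F2 and F3 controls against F0 and F1 controls held in each of the 14 alternatives run. F3 controls were above F2 controls for hsp-16.2 (1.77-fold, edgeR adjusted p = 0.0302) and hsp-16.41 (1.66-fold, edgeR adjusted p = 0.0291), where 12.9% of all genes were higher. The libraries overlapped, and both calls were lost without F3 control replicate 3 (log2 0.31 and 0.23, edgeR adjusted p = 0.377 and 0.432) or without F2 control replicate 1, and that of hsp-16.2 without F2 control replicate 2.

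Other measures moved between the control generations as well. Summed CPM of the moulting list was 68.8 to 98.8 in F0, 185 to 230 in F1, 234 to 287 in F2 and 75.7 to 119 in F3 control libraries. Vitellogenin genes of the adult intestine summed to 27794 to 35548 CPM in F0, 20349 to 23069 in F1, 19660 to 23625 in F2 and 18214 to 19805 in F3 control libraries. Major sperm protein genes summed to 3104 to 3911 CPM in F0, 3737 to 4368 in F1, 2870 to 4443 in F2 and 2315 to 3130 in F3 control libraries. Ribosomal RNA genes held 3.19% to 4.92% of the counts in F0, 6.86% to 12.7% in F1, 10.5% to 24.3% in F2 and 6.78% to 15.7% in F3 control libraries. Every F0 library thus had a lower share than those of F1, F2 and F3, whose shares overlapped. By mean, the abundant members were highest in F0 and lowest in F2 controls. With the ribosomal RNA genes left out of the fit, the calls of the 3 abundant members in F2 and F3 against F0 and F1 controls held. That fit keeps the same libraries, so it cannot show what a library's ribosomal RNA share stands for. Between F0 and F3 control libraries the moulting sums overlapped, vitellogenin sums were lower in F3 and ribosomal RNA shares were higher in F3. The part of these measures in the baseline was not tested, and generation and time of culture cannot be told apart.

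Unirradiated recovery animals were compared with controls, to ask whether the levels of irradiated lines differed after the radiation had ended. The control libraries are the ones on which the members were chosen, as genes higher in exposed animals, so low control values favour a higher recovery level, and the p-values of this comparison are not independent of that choice. In F1, 0 of 7 members were called by edgeR (2.05% of all genes higher and 0.755% lower), 1 at an unadjusted p under 0.05 and 0 by DESeq2. That one was hsp-70, with 283 ± 28.5 CPM in recovery and 183 ± 52.97 CPM in control animals (SD, n = 3 each; log2 0.62, SE 0.27, edgeR adjusted p = 0.275), and it was the 1 member whose libraries did not overlap (13.9% of all genes). The fitted log2 difference was 0.25 for both hsp-16.2 (SE 0.27) and hsp-16.41 (SE 0.24).

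In F2 recovery animals 2 of 7 members were called higher than in controls, where 0.238% of all genes were called higher. The members were chosen on these control libraries too, so these p-values are not independent of that choice. hsp-16.2 averaged 94.2 ± 10.1 CPM in recovery and 44.7 ± 10.1 CPM in control animals (log2 1.07, SE 0.28, edgeR adjusted p = 0.0387, n = 3 each). hsp-16.41 averaged 93.7 ± 15.8 CPM and 49.8 ± 11.8 CPM in the same groups (log2 0.91, SE 0.25, edgeR adjusted p = 0.0467). hsp-70, at 88.2 ± 6.999 CPM in recovery and 45.3 ± 8.41 CPM in control animals, missed the threshold (log2 0.96, SE 0.28, edgeR adjusted p = 0.0565). The DESeq2 Wald test called hsp-70 as well. Libraries of 5 members were separate in this comparison, against 10.9% of all genes. The edgeR calls of hsp-16.2 and hsp-16.41 were lost with any single F2 recovery library left out or without F2 control replicate 1 or 2, when their adjusted p was 0.0850 to 0.167. Summed moulting genes were also apart in F2, at 136 to 158 CPM in recovery and 234 to 287 CPM in control libraries. Ribosomal RNA genes held 7.90% to 11.6% of the counts in recovery and 10.5% to 24.3% in control libraries. The 24.3% was in F2 control replicate 1, which had the lowest hsp-16.2, hsp-16.41 and hsp-70 of its group. Both calls held with the ribosomal RNA genes left out, which keeps the same libraries and so cannot show what that share stands for. The part of the moulting genes was not tested.

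In F3 recovery animals 2 of 7 members were again higher than in controls, with 0.913% of all genes called higher, and 3 members did not overlap (6.06% of all genes). hsp-16.41 averaged 196 ± 22.8 CPM in recovery and 83.0 ± 43.03 CPM in control animals (log2 1.24, SE 0.25, edgeR adjusted p = 0.0128). hsp-70 averaged 151 ± 31.2 CPM in recovery and 68.9 ± 32.0 CPM in control animals (log2 1.13, SE 0.28, edgeR adjusted p = 0.0379). hsp-16.2, at 160 ± 27.4 CPM and 79.1 ± 41.8 CPM in these groups, missed the threshold (log2 1.01, SE 0.28, edgeR adjusted p = 0.0613, n = 3 each). The DESeq2 Wald test called hsp-16.2 as well. Ribosomal RNA genes held 4.09% to 10.2% of the counts in F3 recovery and 6.78% to 15.7% in F3 control libraries. Both edgeR calls held with those ribosomal RNA genes left out, but in the same libraries, so the part of the ribosomal RNA share was not tested. With the 2 libraries of fewest detected genes left out, replicate 3 of each group, all 3 genes were called (log2 1.51 for hsp-16.2, 1.76 for hsp-16.41 and 1.64 for hsp-70, edgeR adjusted p = 0.0270, 0.00272 and 0.0254). No member was called when F3 was fitted alone, without F3 recovery replicate 3 or without F3 control replicate 1, and the call of hsp-70 was also lost without F3 recovery replicate 1 or 2 or F3 control replicate 2.

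The median log2 difference of recovery over control for the 7 members was 0.25 in F1, 0.91 in F2 and 1.01 in F3, against medians of 0.00 to -0.02 for all genes. A difference of these effects between generations was called for 0 of 7 members in any of the 3 pairs of generations by edgeR or DESeq2, which gave no adjusted p for 2 members in F2 minus F1. Over all genes edgeR called 3.76% in F2 minus F1, 1.83% in F3 minus F1 and 0.25% in F3 minus F2. At an unadjusted p under 0.05 edgeR gave 1 in F2 minus F1, 1 in F3 minus F1 and 0 in F3 minus F2. These were hsp-16.2 in F2 minus F1 (log2 0.82, SE 0.39, edgeR adjusted p = 0.238) and hsp-16.41 in F3 minus F1 (log2 0.98, SE 0.34, edgeR adjusted p = 0.167).

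**Figure D3:**
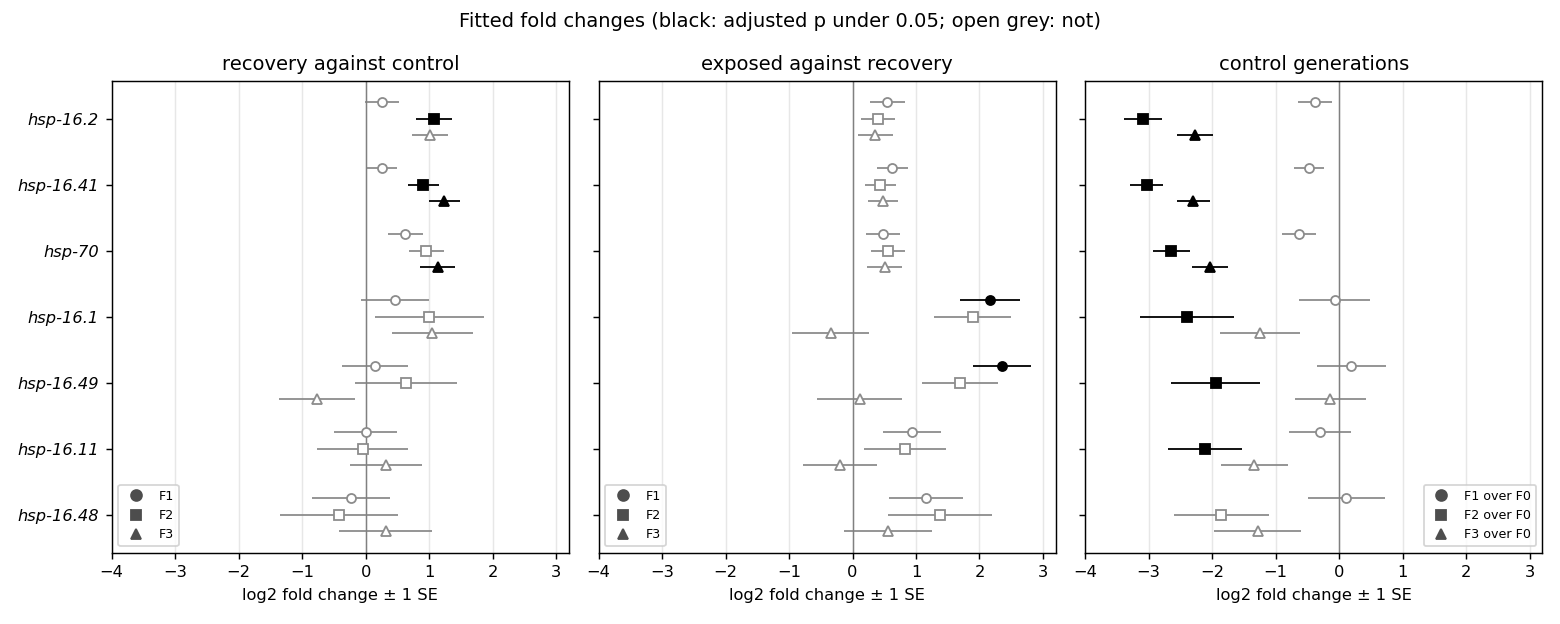
Fitted log2 fold changes of the 7 members (horizontal axis, bars ± 1 SE) for recovery over control and for exposed over recovery animals of F1 to F3, and for controls of F1, F2 and F3 over those of F0; filled black symbols had an edgeR adjusted p under 0.05. The abundant genes are called in F2 or F3 recovery against control and in F2 and F3 controls over F0, and hsp-16.1 and hsp-16.49 in F1 exposed against recovery.

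Irradiated animals were also compared with recovery animals of the same generation, since both descended from an irradiated F0. The exposed libraries, too, are ones on which the members were chosen. In F1 2 of 7 members were called, both higher in exposed animals (0.919% of all genes higher and 0.528% lower), and both were minus-strand genes of the T27E4 cluster. hsp-16.49 averaged 3.98 ± 0.355 CPM in exposed and 0.780 ± 0.0951 CPM in recovery animals (5.13-fold, log2 2.36, SE 0.45, edgeR adjusted p = 0.00806). hsp-16.1 averaged 4.58 ± 0.725 CPM and 1.03 ± 0.233 CPM in the same groups (4.49-fold, log2 2.17, SE 0.47, edgeR adjusted p = 0.0156; n = 3 each). The call of hsp-16.49 held in all 13 alternatives, and that of hsp-16.1 was lost without F1 exposed replicate 2 or any F1 recovery replicate (adjusted p up to 0.112). With near-identical copies summed, hsp-16.1 and hsp-16.11 together rose 3.42-fold (edgeR adjusted p = 0.0455) and hsp-16.48 and hsp-16.49 together were 3.52-fold higher without passing (edgeR adjusted p = 0.0594). Vitellogenin genes were also apart in F1, at 22418 to 23989 CPM in exposed and 17907 to 19363 CPM in recovery libraries. The moulting, sperm and ribosomal RNA sums of these groups overlapped, and the part of these measures in the calls was not tested.

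The abundant genes were higher in exposed than in recovery animals without passing the test in the fit of all libraries. In F1 the ratio of means was 1.46 for hsp-16.2, 1.55 for hsp-16.41 and 1.39 for hsp-70, with no overlap between groups (edgeR adjusted p = 0.372, 0.220 and 0.456). Of 14 alternatives, hsp-16.41 was called in 1, with F1 fitted alone (edgeR adjusted p = 0.0190). Libraries of 6 members lay higher with no overlap in F1, against 14.9% of all genes. In F2 0 of 7 members were called by edgeR and 0 by DESeq2, with 2 at an unadjusted edgeR p under 0.05, namely hsp-16.1 (log2 1.89, SE 0.61, edgeR adjusted p = 0.591) and hsp-16.49 (log2 1.70, SE 0.60, edgeR adjusted p = 0.651). Of all genes 0.00567% were called higher and 0% lower there. The F2 groups were separate for 4 members, including the 3 abundant genes, against 9.66% of all genes. In F3 0 members were called, 0 had an unadjusted p under 0.05 and DESeq2 called 0, with 0.817% of all genes called higher and 0.862% lower by edgeR. All 7 members overlapped in F3, where 10.3% of all genes lay higher without overlap. Differences between generations in this effect were called for 0 members by edgeR and DESeq2, beside 0.488% of all genes by edgeR in F2 minus F1, 0% in F3 minus F1 and 0.00567% in F3 minus F2. DESeq2 gave no adjusted p for 4, 3 and 0 members in these. The unadjusted p was under 0.05 for hsp-16.1 in F3 minus F1 (log2 -2.51, SE 0.76, edgeR adjusted p = 0.153) and F3 minus F2 (log2 -2.24, SE 0.86, edgeR adjusted p = 0.394), and for hsp-16.49 in F3 minus F1 (log2 -2.25, SE 0.80, edgeR adjusted p = 0.218).

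Within the T27E4 cluster the minus-strand genes, 1 of each pair, had larger exposed over control ratios than the plus-strand genes in F0, F1 and F2, a difference that was not tested. In F0 hsp-16.1 had 1.67, 5.77 and 4.73 CPM in exposed, against 0.997, 0.701 and 0.628 CPM in control libraries. In F1 it was at 4.29, 5.4 and 4.03 CPM in exposed, 0.786, 1.07 and 1.25 CPM in recovery, and 0.580, 0.490 and 1.12 CPM in control libraries. In F2 the values were 1.54, 0.491 and 1.29 CPM in exposed, 0.336, 0.219 and 0.310 CPM in recovery, and 0.0420, 0.144 and 0.205 CPM in control libraries, the lowest of which rested on 1 count. Exposed libraries thus lay above both other groups in F1 and F2. In F3 they were at 0.841, 0.227 and 0.541 CPM in exposed, 0.325, 0.755 and 0.987 CPM in recovery, and 0.188, 0.0519 and 0.699 CPM in control libraries, and the groups overlapped.

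hsp-16.49, the other minus-strand gene, had 1.13, 4.11 and 4.48 CPM in F0 exposed, against 0.647, 0.537 and 0.655 CPM in F0 control libraries. In F1 it was at 3.83, 3.71 and 4.38 CPM in exposed, 0.694, 0.882 and 0.764 CPM in recovery, and 0.557, 0.716 and 0.839 CPM in control libraries. F0 exposed replicate 1 was the lowest of its group for both minus-strand genes, although it was the highest for hsp-16.2, hsp-16.41 and hsp-70. In F2 hsp-16.49 was at 1.14, 0.234 and 1.07 CPM in exposed, 0.252, 0.192 and 0.284 CPM in recovery, and 0.168, 0.144 and 0.159 CPM in control libraries. In F3 it was at 0.439, 0.227 and 0.397 CPM in exposed, 0.290, 0.339 and 0.351 CPM in recovery, and 0.225, 0.156 and 1.216 CPM in control libraries. F3 control replicate 3 alone put the F3 control mean above the exposed mean.

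The exposed mean over the control mean was 5.23, 6.27, 8.48 and 1.72 for hsp-16.1 in F0, F1, F2 and F3, and 5.29, 5.65, 5.19 and 0.665 for hsp-16.49. For the plus-strand gene hsp-16.11 the ratios were 1.51, 1.87, 1.91 and 1.19, and its group means lay between 1.36 CPM in F1 exposed and 0.184 CPM in F2 control animals. Its F1 exposed libraries, at 1.17 to 1.46 CPM, lay above those of F1 recovery (at most 1.02 CPM) and F1 control (at most 0.942 CPM). For hsp-16.48 the ratios were 1.87, 1.90, 2.04 and 1.97, and its group means lay between 2.14 CPM in F1 exposed and 0.208 CPM in F2 recovery animals. Without F3 control replicate 3 the F3 ratios were 4.48 for hsp-16.1, 1.86 for hsp-16.49, 3.97 for hsp-16.11 and 4.24 for hsp-16.48, with no order by strand. Neither plus-strand gene was called in recovery against control or in exposed against recovery. Of the reads given to hsp-16.1 and its copy hsp-16.11, hsp-16.1 held 73.4% to 82.2% in F1 exposed, 51.3% to 70% in F1 recovery and 34.2% to 61.5% in F1 control libraries. hsp-16.49 held 60.9% to 76% of the reads given to it and hsp-16.48 in F1 exposed, 31.7% to 61.2% in F1 recovery and 29.6% to 53.6% in F1 control libraries. F3 control replicate 3, a library with few detected genes, had 136 counts over the 4 genes, against 15 and 24 in the other F3 controls.

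**Figure D4:**
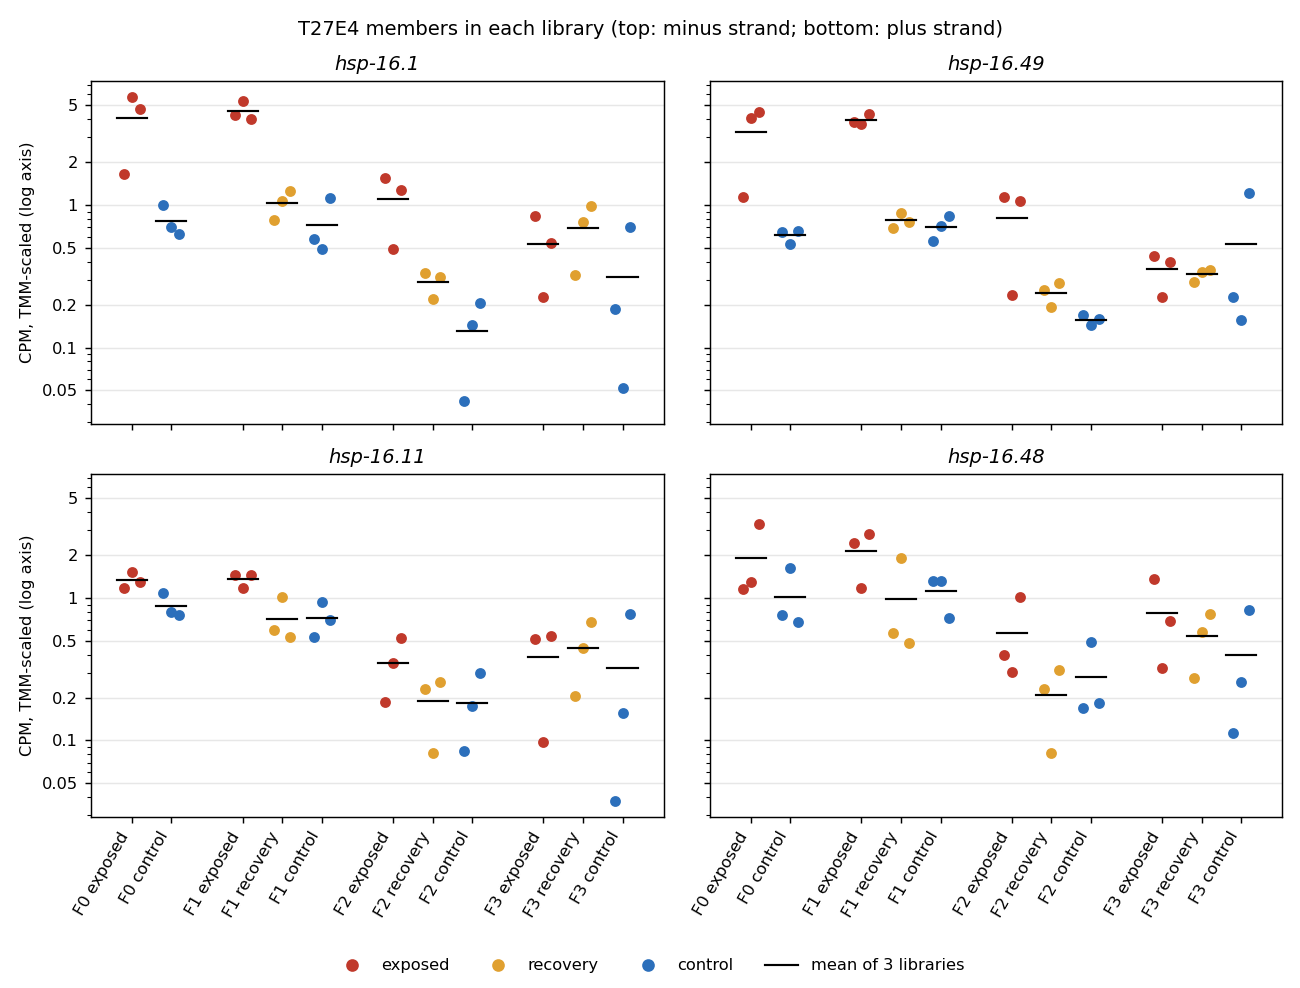
CPM (log axis, scaled with TMM factors) of the 4 T27E4 genes in each library, ordered as exposed, recovery and control within a generation, with bars at the means of 3; the upper panels hold the minus-strand genes and the lower panels the plus-strand genes. In F1 the exposed libraries of hsp-16.1 and hsp-16.49 stand between 3.71 and 5.4 CPM, above all recovery and control libraries. The F1 exposed libraries of the plus-strand gene hsp-16.11 also stand above them, at 1.17 to 1.46 CPM, whereas those of hsp-16.48 overlap them.

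The 3 abundant genes moved together from library to library. Over the 33 libraries Pearson's r of log2 CPM was 0.992 between hsp-16.2 and hsp-16.41, which share the region between their starts, and 0.983 between hsp-70 and each of them. Libraries share groups, so r was also taken on deviations from the group means, where it was 0.961 for hsp-16.2 with hsp-16.41, 0.939 for hsp-16.2 with hsp-70 and 0.887 for hsp-16.41 with hsp-70. These values are descriptions over libraries that share their scaling. Among the T27E4 genes the highest r of log2 CPM was 0.959, between the minus-strand genes hsp-16.1 and hsp-16.49. It was 0.826 between hsp-16.1 and its copy hsp-16.11 and 0.784 between hsp-16.48 and its copy hsp-16.49.

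Ratios within a library showed 2 shifts between the abundant genes. The CPM of hsp-16.41 over that of hsp-16.2 was 1.21 to 1.45 in F3 exposed, 1.18 to 1.34 in F3 recovery and 1.01 to 1.11 in F3 control libraries, so both irradiated lines lay above the controls. In F2 this ratio was 0.977 to 1.09 in exposed, 0.889 to 1.07 in recovery and 1.08 to 1.17 in control libraries. The CPM of hsp-70 over that of hsp-16.2 was 0.755 to 0.786 in F1 exposed, 0.754 to 0.839 in F1 recovery and 0.580 to 0.650 in F1 control libraries, again with the irradiated lines above the controls. It was 0.995 to 1.07 in F2 exposed, 0.902 to 0.994 in F2 recovery and 0.886 to 1.16 in F2 control libraries, so hsp-70 was higher relative to hsp-16.2 in F2 than in F1 in each treatment. These ratios were chosen after values of the genes were seen and were not tested.

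**Figure D5:**
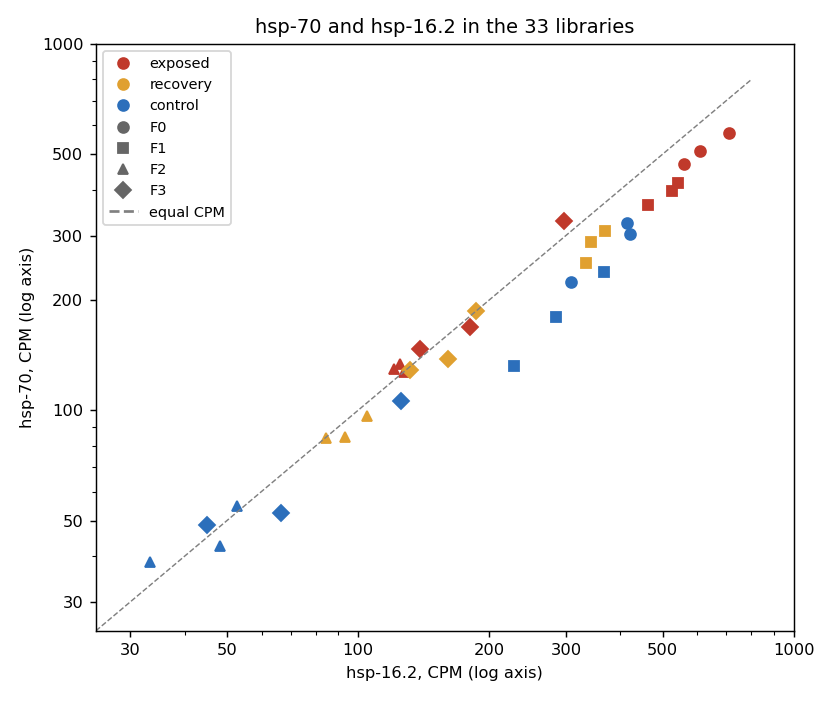
hsp-70 against hsp-16.2 in the 33 libraries, both in CPM on log axes; colour gives the treatment, shape the generation, and the dashed line equal CPM. All F0 and F1 libraries lie below the line, with F1 controls lowest at 0.580 to 0.650 times the CPM of hsp-16.2, and F2 and F3 libraries lie on both sides of it at 0.787 to 1.16 times.

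The regulator and the other chaperones were read from a list of 34 genes of the heat shock response, all 34 tested. hsf-1, which encodes the transcription factor of the response, differed by at most 0.27 on the log2 scale in the comparisons of 2 groups made here. These did not set F2 exposed animals, with 94.5 ± 4.79 CPM of hsf-1, against F1 exposed animals. hsf-1 averaged 76.9 ± 2.65 CPM in F1 exposed, 82.6 ± 3.71 CPM in F1 recovery and 77.1 ± 3.70 CPM in F1 control animals, and in F2 controls it was at 87.4 ± 0.486 CPM against 88.5 ± 2.77 CPM in F0 controls (log2 -0.02, SE 0.06, edgeR adjusted p = 0.863; n = 3 each). Its calls were all between controls, higher in F3 than in F1 (92.8 ± 10.4 against 77.1 ± 3.70 CPM, log2 0.27, edgeR adjusted p = 0.00201), higher in F2 than in F1 (log2 0.18, edgeR adjusted p = 0.0396) and lower in F1 than in F0 (log2 -0.20, edgeR adjusted p = 0.0287).

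Exposed animals had 1, 7, 6 and 7 of the 34 genes higher and 0, 0, 0 and 3 lower than controls in F0, F1, F2 and F3 by edgeR, beside 1.29%, 0.942%, 2.81% and 2.87% of all genes higher and 0.0738%, 0.528%, 6.2% and 2.37% lower. aip-1, which encodes an arsenite-inducible regulator of the proteasome, was higher in each generation and in F0 averaged 549 ± 67.1 CPM in exposed, against 320 ± 52.2 CPM in control animals (log2 0.78, edgeR adjusted p = 0.0383). The J-domain co-chaperone gene dnj-13 (log2 0.43, edgeR adjusted p = 0.000769), the BAG-domain co-chaperone gene unc-23 (log2 0.87, edgeR adjusted p = 0.00248) and the HSP70-family gene F44E5.4 (log2 1.56, edgeR adjusted p = 0.00265) rose in F1. In F2 the rises included hsp-90 (log2 0.38, edgeR adjusted p = 0.00427) and hsp-110 (log2 0.36, edgeR adjusted p = 0.00493), genes of constitutive cytosolic chaperones. In F3 F08H9.4, a small heat shock gene named hsp-16.21 in RefSeq and outside both clusters, averaged 4.04 ± 1.67 CPM in exposed, against 1.48 ± 0.191 CPM in control animals (log2 1.43, edgeR adjusted p = 0.000651). F44E5.4 has a near-identical neighbour, so its reads may be shared. The list was drawn up with earlier results of these data known, so these calls and p-values describe its genes and are no independent support for a response.

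In recovery animals 2, 0 and 3 of the 34 genes were higher than in controls in F1, F2 and F3 and none lower, beside 2.05%, 0.238% and 0.913% of all genes called higher and 0.755%, 2.81% and 0.669% called lower. The F1 rises were dnj-19 (log2 0.32, edgeR adjusted p = 0.00868) and dnj-13 (log2 0.26, edgeR adjusted p = 0.0378), both J-domain genes. For the 0 in F2, where the abundant hsp-16 genes were called, 6 genes had an unadjusted edgeR p under 0.05 and DESeq2 called 2. The F3 rises were F08H9.4, at 3.40 ± 0.268 CPM in recovery and 1.48 ± 0.191 CPM in control animals (log2 1.19, edgeR adjusted p = 0.0102), dnj-13 (log2 0.35, edgeR adjusted p = 0.0104) and unc-23 (log2 0.76, edgeR adjusted p = 0.0126). Exposed against recovery gave 0 calls in F1 and 0 in F2 by edgeR, beside 0.919% and 0.00567% of all genes called higher and 0.528% and 0% lower. At an unadjusted edgeR p under 0.05 it gave 11 and 4 genes, and DESeq2 called 4 and 0. Shares over all genes were not taken for such counts, so they are not read as an excess. In F3, with 0.817% of all genes higher and 0.862% lower, the mitochondrial chaperonin gene hsp-60 was higher in exposed animals (log2 0.45, edgeR adjusted p = 0.0424) and ahsa-1, an activator of HSP-90, lower (log2 -0.32, edgeR adjusted p = 0.0291).

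Genes of the chaperone list were also called lower in later control generations. Of 34 genes 14 fell and 0 rose in F1 controls against F0 controls, 18 fell and 0 rose in F2, and 14 fell and 0 rose in F3, beside 9.21%, 13.9% and 7.02% of all genes called lower and 10.6%, 16.6% and 7.44% called higher. The median log2 fold change of the list was -0.25, -0.48 and -0.26, against -0.02, 0.02 and 0.01 over all genes. In F2 against F0 controls hsp-110 (log2 -0.65, edgeR adjusted p = 1.27e-07), bag-1, a nucleotide exchange factor of HSP70 (log2 -0.73, edgeR adjusted p = 2.03e-07), and ahsa-1 (log2 -0.58, edgeR adjusted p = 2.66e-07) fell. F3 against F0 controls had falls of unc-23 (log2 -1.44, edgeR adjusted p = 6.34e-07), aip-1 (log2 -1.33, edgeR adjusted p = 3.32e-05) and the small heat shock gene hsp-17 (log2 -0.76, edgeR adjusted p = 0.00256). In F2 against F1 controls 4 of 34 genes rose and 12 fell (12.8% and 10.6% of all genes), with hsp-17 (log2 -1.18, edgeR adjusted p = 1.18e-05) and aip-1 (log2 -1.16, edgeR adjusted p = 7.63e-05) among the falls. F3 controls had 5 higher and 5 lower than F1 controls (17.1% and 17.9% of all genes), and 8 higher and 1 lower than F2 controls (12.9% and 16.3%).

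The patterns most like those of the abundant members were sought among 14106 genes with a mean of at least 1 CPM, by Pearson's r of log2 CPM over the 33 libraries. aip-1, itself on the chaperone list, was among the closest 5 of all 3 members, with r of 0.949 for hsp-16.2, 0.939 for hsp-16.41 and 0.954 for hsp-70. Its level ranged from 102 CPM in the lowest to 625 CPM in the highest library. The pseudogene WBGene00013155 (r of 0.952, 0.939 and 0.954, mean 10.04 CPM) was also among the closest 5 of each. The others were the pseudogene WBGene00005902 and ZK1240.1 for hsp-16.2 and hsp-16.41, T25D10.1 for hsp-16.2 and hsp-70, the F-box gene fbxa-48 for hsp-16.41, and ZK1240.8 and the beta-lactamase-domain gene lact-4 for hsp-70, with r of 0.935 to 0.949.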

How the data were processed

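Transcripts of whole animals were measured by paired-end RNA-seq with strand-specific libraries, per the labels' protocols. The deposited values are gene counts made by the authors, whole numbers with no normalisation. STAR and DESeq2 1.22.2 are named in the submitters' processing notes with no role. Not given in the sources used here were the genome build, the counting program, its strand setting and its treatment of reads matching several places. Of 46778 identifiers 46603 were found in the WBcel235 annotation. RefSeq names were matched by locus tag.

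The 33 libraries were fitted together, each group having its own coefficient, with 22 residual degrees of freedom (edgeR 4.0.16, R 4.3.3, TMM scaling, filterByExpr by group, robust quasi-likelihood F-test). p-values were adjusted by Benjamini-Hochberg over 17627 genes, and genes under 0.05 were called. Counts at an unadjusted p or by DESeq2 have no share over all genes beside them and are not read as an excess. SE values were calculated back from the F statistic and are approximate. The common biological coefficient of variation was 0.119, and at most 0.0267% of a library's counts lay in untested genes. The script was tested on simulated data. Depth of 27.7 M to 60.8 M counts limits the precision, most for the T27E4 genes. The labels number the libraries of a group without naming separate cultures or irradiations, so p-values measure only the spread between these libraries, which may be technical. No library was a copy of another in its group (chi-square per degree of freedom at least 8.53).

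The members, the lists and the tests were chosen with earlier results of these data known. All 7 members were described, with a p for those called, near the threshold or compared with a called member. Of the 34 chaperone genes up to 4 called genes of smallest p were named per comparison, with fewer named in places and hsf-1 added after its values were seen. For each member of at least 10 CPM the 5 most similar genes were named. Alternatives were DESeq2 size factors, the DESeq2 1.42.0 Wald test, no filter, a replicate block, only the generations compared, copies summed, ribosomal RNA genes left out, and libraries left out. Sequences of these genes are not used here.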

Additional observations from a re-analysis of the deposited data

Results flagged for a closer look

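The effect of recovery against control on ddl-2, which encodes a partner of the HSF-1 inhibitor HSB-1, differed between generations. It averaged 13.7 ± 1.98 CPM in F1 recovery and 8.25 ± 0.910 CPM in F1 control animals, 10.6 ± 1.37 CPM in F2 recovery and 13.1 ± 2.62 CPM in F2 control animals, and 7.67 ± 2.18 CPM in F3 recovery and 12.28 ± 1.45 CPM in F3 control animals (SD, n = 3 each). The log2 effect in F2 minus that in F1 was -1.03 (SE 0.30, edgeR adjusted p = 0.0485), and in F3 minus F1 it was -1.41 (SE 0.30, edgeR adjusted p = 0.0115). ddl-2 was 1 of 34 listed genes called in each, beside 3.76% and 1.83% of all genes, so these calls show no excess for the list. Both differences rest on F1 controls, where ddl-2 was called lower than in F0 controls (13.7 ± 0.0968 CPM). Within single generations the recovery against control difference of ddl-2 was not called (edgeR adjusted p = 0.0573 in F1, 0.443 in F2 and 0.0913 in F3).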

How the results depend on the processing

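Alternatives were tallied for results of single members with an unadjusted p under 0.05 in the reported fit, whether called or not. Of these, 457 left the call or its absence as it was, 61 lost a call, 19 gained one and 0 turned the direction. The recovery against control calls held less often. Of 14 alternatives each, hsp-16.2 and hsp-16.41 were called in 8 and 8 in F2, and hsp-16.41 and hsp-70 in 11 and 7 in F3. Scaling with DESeq2 size factors, leaving out ribosomal RNA genes and the replicate block changed no count of members called: with the block it stayed at 2 in F2 and 2 in F3 for recovery against control. The replicate numbers did not pair the libraries, since only 12 of 48 same-numbered pairs deviated together with r over 0.1 and 16 of 48 libraries correlated best with their own number. With no filter on low counts, 0 members were called in F2 and 1 in F3 for recovery against control, 3 in F2 against F1 controls and 0 in F3 against F2 controls. Fitting only the generations compared gave 0 in F3 recovery against control, 2 in F1 against F0 controls and 0 in F3 against F2 controls. That fit also called hsp-16.41 in F1 exposed against recovery and hsp-70 in F2 recovery against control, which the reported fit did not. Summing copies left 1 of 5 features in F1 exposed against recovery. Without replicate 3 of F3 recovery and of F3 control, 5 members were called in F3 against F0, 7 in F3 against F1 and 0 in F3 against F2 controls. Leaving out 1 library at a time gave 0 to 0 calls in F1, 0 to 3 in F2 and 0 to 3 in F3 for recovery against control, and 1 to 2 in F1, 0 to 0 in F2 and 0 to 0 in F3 for exposed against recovery. Between controls it gave 0 to 0 in F1 against F0, 4 to 5 in F2 against F0, 3 to 5 in F3 against F0, 3 to 6 in F2 against F1, 3 to 7 in F3 against F1 and 0 to 3 in F3 against F2. The causes of these changes were not tested. Depth limits the T27E4 genes, which had 1 to 222 counts a library.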
